A study of Homo sapiens with 12 samples.

Results

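Keratins are the intermediate filament proteins of epithelial cells, and 6 of the 58676 genes in the deposited expression table are described here: KRT7, KRT8, KRT18, KRT19, KRT80 and KRT81. They were picked by gene symbol, with earlier results of these data known, because KRT19 was higher in both knockout lines than in the control line. The levels in KO lines against the control line are therefore given as a description, with no test. All 6 genes had a mean of at least 1 FPKM (fragments per kilobase of gene length, scaled to the reads assigned to genes), so each was among the 12194 genes entered in the tests. The cells were A549, an established human lung carcinoma line. Every library came from a control line (genotype Control1) or from a line knocked out for NFE2L1, called KO1 and KO2, after 4 h with DMSO vehicle or with 200 nM of the proteasome inhibitor bortezomib. Each of the 6 groups had 2 libraries, 12 in all. The protein made from NFE2L1 is a membrane-bound transcription factor of the endoplasmic reticulum that drives proteasome genes under proteasome inhibition. How the knockouts were made, whether each line is a clone and whether replicates were separate cultures is not given in the sources used here, so the spread between libraries may be technical, and there was 1 control line.

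Keratin filaments are built from pairs, each with 1 acidic type I chain and 1 basic type II chain, and a keratin without a partner is usually unstable. KRT18 and KRT19 are type I chains of simple, single-layered epithelia. KRT8 and KRT7 are the type II chains they pair with there, and the KRT8 and KRT18 pair is the first to appear in embryonic epithelium. KRT80 is a type II chain known from many epithelia near cell junctions. KRT81 is a type II hair keratin that many carcinoma lines transcribe. Lung adenocarcinoma typically holds KRT7, KRT8, KRT18 and KRT19.

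In the deposited coordinates, which are those of GRCh38, 5 of the genes lie on chromosome 12. From low to high coordinate they are KRT80 (ENSG00000167767, chr12:52168996-52192000, minus strand), KRT7 (ENSG00000135480, chr12:52232520-52252186, plus strand), KRT81 (ENSG00000205426, chr12:52285913-52291534, minus strand), KRT8 (ENSG00000170421, chr12:52897187-52949954, minus strand) and KRT18 (ENSG00000111057, chr12:52948871-52952901, plus strand). KRT19 (ENSG00000171345) lies at chr17:41523617-41528308 on the minus strand and overlaps no other annotated gene in GENCODE 29. The others overlap a neighbour: KRT8 and KRT18 share 1084 bases on opposite strands, KRT81 lies inside the interval of KRT86, KRT7 overlaps KRT86, KRT87P and KRT7-AS, and KRT80 overlaps LINC00592. Whether reads were counted by strand is not given in the sources used here, so reads from overlapping stretches cannot be told apart. KRT87P had a mean of 12.7 FPKM and LINC00592 of 0.126 FPKM over the 12 libraries.

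KRT81 has close copies, and their sequences bear on how its level is read. Its coding sequence was 89.6% identical to that of KRT86, with 1 unbroken identical run of 605 bases, and 89.3% identical to that of KRT83, with a longest identical run of 95 bases. The stretch below is the 60 coding bases with the most differences between KRT81 and KRT86, read from the GENCODE 29 transcripts on GRCh38, 5′ to 3′, with capitals where the 3 genes differ from each other. It crosses the junction of exons 8 and 9 of KRT81 (chr12:52286465-52286821, minus strand), exons 10 and 11 of KRT86 (chr12:52308234-52308432, plus strand) and exons 8 and 9 of KRT83 (chr12:52314790-52315342, minus strand).
KRT81: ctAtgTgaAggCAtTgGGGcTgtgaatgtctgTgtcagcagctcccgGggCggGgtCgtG
KRT86: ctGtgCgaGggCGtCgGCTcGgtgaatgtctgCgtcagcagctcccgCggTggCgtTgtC
KRT83: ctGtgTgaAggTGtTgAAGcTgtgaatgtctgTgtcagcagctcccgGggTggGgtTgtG
In this stretch KRT86 differed from KRT81 at 14 bases and KRT83 at 7. A read that falls within the 605 identical bases cannot be told apart between KRT81 and KRT86. As deposited, KRT83 and KRT86 together held 0.212% to 0.673% as many reads as KRT81. Pseudogenes of the other members also held few reads: 50 KRT8 pseudogenes held 0.172% to 1.30% as many as KRT8, 67 KRT18 pseudogenes held 0.0398% to 0.355% as many as KRT18, and 5 KRT19 pseudogenes held none.

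The libraries held 13211608 to 23819258 reads assigned to genes. NFE2L1 was at 72.7 to 189 FPKM in the control line, 8.45 to 35.8 in KO1 and 18.6 to 50.8 in KO2. All 8 listed genes that are known to be high in A549 passed the low-value filter, at a summed 1081 to 3430 FPKM. Of the 9 alveolar type II markers only ABCA3 passed the filter, and SFTPA1 and SFTPA2 were at 0 in every library. The alveolar type II markers summed to 4.21 to 29.6 FPKM, alveolar type I markers to 0.786 to 4.18, club cell markers to 0 to 21.5 and ciliated cell markers to 1.83 to 5.18. Squamous and basal markers summed to 26.2 to 129 FPKM, fibroblast markers to 2.01 to 24.4, leukocyte markers to 0 to 3.69 and endothelial markers to 0.0160 to 0.240. Nearly all of the squamous and basal sum was SFN, at 25.8 to 126 FPKM. Of the 10 genes in that list 2 passed the filter, SFN and KRT16. The 1 fibroblast marker that passed the filter, COL1A1, was higher with bortezomib in KO1 (log2 change 2.40) and KO2 (1.81) in the fit with the replicate block described below (limma adjusted p 0.00454 and 0.0162) and not without it (0.130 and 0.230). In the control line COL1A1 changed in the same direction (1.12) and passed in neither fit. The mean change of the KO lines minus that of the control line (0.98) did not pass either. Titles of 6 libraries, 1 in each group, end in R2. The partner ends in R1 in the KO lines and carries no number in the control line. The R2 libraries stood apart: mitochondrial genes took 12.3% to 19.3% of their reads, against 5.44% to 6.80% in the others.

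The keratins moved with that split as well. KRT7, KRT8, KRT18, KRT80 and KRT81 were lower in R2 than in the partner in all 6 groups, as were 44.2% of the tested genes. The ratio of R2 to its partner was 0.287 to 0.513 for KRT81, 0.389 to 0.655 for KRT7, 0.448 to 0.737 for KRT80, 0.467 to 0.842 for KRT8 and 0.6002 to 0.929 for KRT18. KRT19 was lower in R2 in 5 of 6 groups, with ratios of 0.494 to 1.02. Because the same-numbered libraries deviated together across genes, each comparison is given within pairs: R2 with R2, and R1 or unnumbered with R1 or unnumbered. Tests were made with limma on log2(FPKM + 1), called at a Benjamini-Hochberg adjusted p under 0.05 over all tested genes, both without and with the replicate as a block. With 2 libraries against 2, an exact permutation test of 1 gene cannot reach 0.05.

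**Figure D1:**
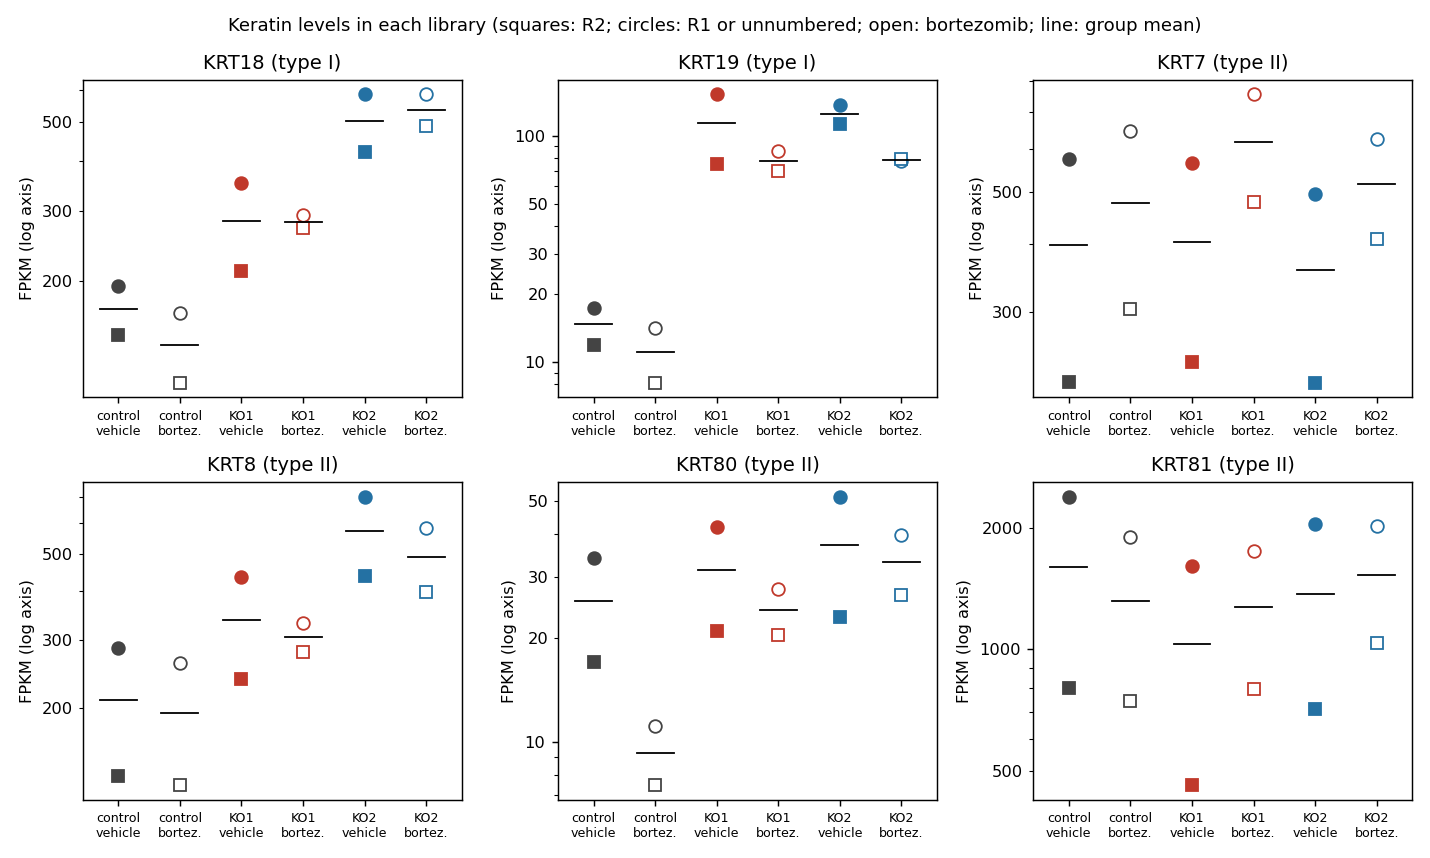
FPKM (log axis) of the 6 keratins in each of the 12 libraries, by line and treatment; squares are R2 libraries, circles R1 or unnumbered ones, open symbols bortezomib, and lines group means. KRT19 and KRT18 are the genes whose 8 KO libraries all lie above the 4 control libraries, while KRT81 and KRT7 separate by replicate more than by line.

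KRT19 is the smallest type I keratin, lacks most of the tail domain and is a marker of simple epithelium and of many carcinomas. In vehicle it was at 17.4 and 11.97 FPKM in the control line (unnumbered and R2), 153 and 75.5 in KO1 (R1 and R2), and 137 and 113 in KO2. With bortezomib it was at 14.2 and 8.12 FPKM in the control line, 85.7 and 69.8 in KO1, and 77.4 and 79.3 in KO2. Every KO library lay above every control library, and the lowest KO value was 69.8 FPKM against a highest control value of 17.4. In bulk RNA, more transcript per cell and more cells with the transcript cannot be told apart. In this it resembled KRT18, and 1.05% of tested genes (128) had all 8 KO libraries above all 4 control libraries. Since the gene was chosen for this difference, nothing is read from that share.

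Ordered by group mean, KRT19 went from control with bortezomib (11.2 ± 4.31 FPKM, SD, n = 2) and control with vehicle (14.7 ± 3.86) through KO1 with bortezomib (77.8 ± 11.2) and KO2 with bortezomib (78.4 ± 1.36) to KO1 with vehicle (114 ± 54.6) and KO2 with vehicle (125 ± 17.0). Neighbouring groups in this order had overlapping libraries in 4 of the 5 steps. The step without overlap was that from the control line to the KO lines. Within pairs, KO1 was 8.76 and 6.31 times the control line in vehicle and 6.03 and 8.61 times with bortezomib. KO2 was 7.84 and 9.41 times the control line in vehicle and 5.45 and 9.78 times with bortezomib. On the log2(FPKM + 1) scale the differences from the control line were 2.81 for KO1 and 3.02 for KO2 in vehicle and 2.73 and 2.75 with bortezomib (SE 0.46 each). The gene's 357 to 6878 reads per library put it between rank 152 and rank 4460 by FPKM.

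KRT18 is the type I chain that pairs with KRT8 in simple epithelium. In vehicle it was at 194 and 147 FPKM in the control line, 353 and 212 in KO1, and 586 and 419 in KO2. With bortezomib the values were 166 and 112 FPKM in the control line, 292 and 272 in KO1, and 585 and 488 in KO2. All 8 KO libraries lay above the 4 control libraries, as they did for 1.05% of tested genes. No KO2 library overlapped a KO1 library. The share of tested genes for which that held is not given here, so nothing is read from it. The group means were 139 ± 38.8 FPKM in the control line with bortezomib, 171 ± 33.6 with vehicle, 282 ± 14.6 in KO1 with bortezomib, 282 ± 99.8 with vehicle, 503 ± 118 in KO2 with vehicle and 536 ± 69.2 with bortezomib (SD, n = 2 each). In each line the vehicle and bortezomib libraries overlapped. The differences from the control line on the log2 scale were 0.69 for KO1 and 1.55 for KO2 in vehicle and 1.04 and 1.96 with bortezomib (SE 0.48).

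KRT8, the type II partner of KRT18, followed the same order with a wider spread between replicates. In vehicle it was at 285 and 133 FPKM in the control line, 436 and 238 in KO1, and 703 and 439 in KO2. With bortezomib it was at 261 and 126 FPKM in the control line, 331 and 279 in KO1, and 582 and 397 in KO2. KO1 overlapped the control line in vehicle and not with bortezomib, and KO2 overlapped it in neither. The share of tested genes without such overlap is not given here, so nothing is read from this. Within pairs KRT8 was 1.27 to 2.22 times the control line in KO1 and 2.23 to 3.299 times in KO2, over both treatments. The log2 differences were 0.72 for KO1 and 1.51 for KO2 in vehicle and 0.74 and 1.40 with bortezomib (SE 0.60).

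KRT7, the other type II chain of simple epithelium, did not follow that order. In vehicle it was at 574 and 223 FPKM in the control line, 565 and 243 in KO1, and 496 and 222 in KO2. With bortezomib it was at 647 and 304 FPKM in the control line, 755 and 478 in KO1, and 625 and 409 in KO2. All 6 groups overlapped, and the distance between replicates was larger than that between lines. The log2 differences from the control line were 0.05 for KO1 and -0.11 for KO2 in vehicle and 0.44 and 0.19 with bortezomib (SE 0.72). The value for KO2 in vehicle turned positive in the 4 fits with the replicate block by suffix, at 0.05 to 0.09.

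KRT80 had the lowest level of the type II members. In vehicle it was at 34.2 and 17.0 FPKM in the control line, 42.0 and 20.9 in KO1, and 51.5 and 23.1 in KO2. Libraries of all 3 lines overlapped. With bortezomib it was at 11.1 and 7.47 FPKM in the control line, 27.8 and 20.48 in KO1, and 39.8 and 26.6 in KO2. Both control libraries with bortezomib were below every other library. The share of tested genes with this pattern is not given here, so nothing is read from it. The log2 differences from the control line were 0.28 for KO1 and 0.50 for KO2 in vehicle, and 1.30 and 1.73 with bortezomib (SE 0.54). KRT80 had 612 to 4829 reads per library.

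KRT81, a hair keratin in normal tissue, was among the most abundant transcripts of these cells, between rank 9 and rank 30 by FPKM in every library. In vehicle it was at 2390 and 803 FPKM in the control line, 1606 and 460 in KO1, and 2040 and 709 in KO2. With bortezomib it was at 1893 and 744 FPKM in the control line, 1748 and 796 in KO1, and 2025 and 1038 in KO2. Each R2 library was below every library that was not R2, whatever the line or treatment. The log2 differences from the control line were -0.69 for KO1 and -0.20 for KO2 in vehicle and -0.01 and 0.29 with bortezomib (SE 0.90). In the replicate block the bortezomib difference of KO1 was 0.04.

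Among the members, KRT8, KRT18, KRT19 and KRT80 were higher in both KO lines than in the control line within both pairs. That held in vehicle, as it did for 21.7% of tested genes, and with bortezomib, as it did for 29.7%. KRT7 and KRT81 did not meet it in either treatment. The median log2 difference of all tested genes was 0.02 for KO1 and 0.06 for KO2 in vehicle and 0.05 for both with bortezomib.

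**Figure D2:**
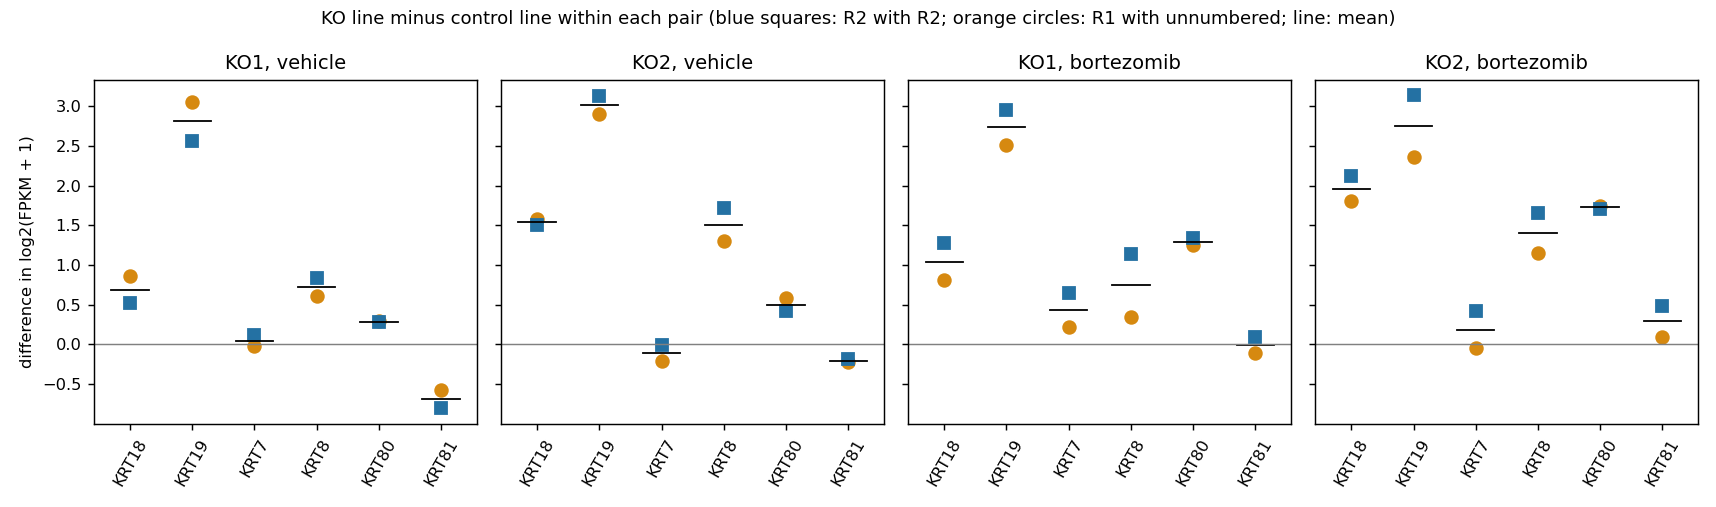
Difference in log2(FPKM + 1) between each KO line and the control line within each pair, for vehicle and bortezomib; blue squares pair R2 with R2, orange circles pair R1 with the unnumbered control library, and lines are means. KRT19 lies between 2.37 and 3.14 in all 8 pairs, KRT18, KRT8 and KRT80 are above 0 in all 8, and KRT7 and KRT81 lie on both sides of 0.

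KO1 and KO2 were next compared directly, a contrast that the choice of members did not use. KRT18 was lower in KO1 than in KO2 in all 4 pairs, at 0.602 and 0.505 times the KO2 level in vehicle and 0.499 and 0.557 times with bortezomib. The log2 difference was -0.86 in vehicle and -0.92 with bortezomib. It passed the threshold with the replicate block in both treatments (limma, SE 0.18, adjusted p 0.0369 and 0.0387) and in neither without it (SE 0.48, adjusted p 1 and 1). With quantile normalization and the block the bortezomib value was -0.77 (limma adjusted p 0.0649).

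KRT8 was lower in KO1 in the same 4 pairs, at 0.620 and 0.542 times KO2 in vehicle and 0.569 and 0.702 times with bortezomib. The vehicle difference of -0.79 passed with the block (limma, SE 0.17, adjusted p 0.0458) and not without it (SE 0.60, adjusted p 1). That call was lost when the unnumbered libraries were grouped with R1 (adjusted p 0.0897), and with the block after quantile normalization (0.0579) or without mitochondrial genes (0.0710). The bortezomib difference of -0.66 did not pass with the block (limma adjusted p 0.105).

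KRT19 was not shown to differ between the KO lines. KO1 was 1.12 and 0.670 times KO2 in vehicle and 1.11 and 0.880 times with bortezomib, higher in 1 pair and lower in the other in each treatment. The log2 difference with the block was -0.21 in vehicle (limma, 95% interval -0.71 to 0.30, adjusted p 0.760) and -0.02 with bortezomib (-0.52 to 0.49, adjusted p 0.989). KRT81 (-0.48 and -0.30), KRT80 (-0.21 and -0.43) and KRT7 (0.16 and 0.25) did not pass either, with limma adjusted p of 0.325 to 0.788 with the block.

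Over the 6 members, the count called between KO1 and KO2 in vehicle was 0 without the block, where 0.0656% of tested genes (8) were called, and 2 with it, where 3% (366) were called. With bortezomib the counts were 0 without the block, beside 0.041% of tested genes (5), and 1 with it, beside 1.82% (222). Without the block no member had an unadjusted limma p under 0.05 in these comparisons. KRT8, KRT18, KRT80 and KRT81 were lower in KO1 in all 4 pairs, as were 20.6% of tested genes. KRT7 was higher in KO1 in all 4, as were 15.6%.

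Bortezomib blocks the proteasome, which degrades misfolded and soluble keratin among many proteins, and the response within each line was not used to choose the members. KRT80 showed the largest response of the 6, in the control line. There it was at 0.325 and 0.438 times the vehicle level (unnumbered and R2 pairs), a log2 change of -1.31 that passed with the replicate block (limma, SE 0.20, adjusted p 0.00166) and not without it (SE 0.54, adjusted p 0.352). In all 5 fits with a block its adjusted p was under the threshold. In KO1 KRT80 was at 0.661 and 0.980 times vehicle (log2 change -0.30, limma adjusted p 0.283 with the block), and in KO2 at 0.772 and 1.15 times (-0.08, adjusted p 0.789). The mean response of the KO lines minus the response of the control line was 1.12 on the log2 scale. It did not pass in the fit without the block (limma, SE 0.66, adjusted p 1) or with it (SE 0.24, adjusted p 0.157).

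KRT7 was higher with bortezomib in each of the 6 pairs, as were 24.8% of tested genes. It was 1.13 and 1.36 times vehicle in the control line, 1.34 and 1.97 times in KO1, and 1.26 and 1.84 times in KO2, with the larger ratio in R2 each time. The log2 changes were 0.31, 0.70 and 0.60. With the block KRT7 passed in KO1 (limma, SE 0.19, adjusted p 0.0262) and in KO2 (adjusted p 0.0447), and not in the control line (adjusted p 0.244). Without the block it passed in none (SE 0.72, adjusted p 0.891 to 0.943). The call in KO2 was lost when unnumbered libraries were grouped with R1 (adjusted p 0.0545) and, with the block, without mitochondrial genes (0.0565). After quantile normalization with the block neither call held: the changes were 0.38 in KO1 (adjusted p 0.199) and 0.46 in KO2 (0.135). The mean KO response minus the control response was 0.34 (limma adjusted p 1 without and 0.665 with the block).

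KRT19 was lower with bortezomib in each of the 6 pairs, as were 23.8% of tested genes. It was at 0.815 and 0.678 times vehicle in the control line, 0.561 and 0.925 times in KO1, and 0.566 and 0.704 times in KO2. The log2 changes were -0.39, -0.47 and -0.66 (limma SE 0.22 with the block), with adjusted p of 0.208, 0.149 and 0.0577 with the block and 0.793 to 0.886 without it. The value in KO2 passed in 2 other fits with the block, voom on recovered reads (adjusted p 0.0128) and without mitochondrial genes (0.0494). The response of the KO lines differed from that of the control line by -0.17 (limma, 95% interval with the block -0.79 to 0.45).

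KRT18 and KRT8 had no called response in the fits without and with the block. For KRT18 the log2 changes were -0.31 without the knockout, 0.04 in KO1 and 0.11 in KO2, and both KO values turned negative under quantile normalization (-0.08 and -0.20). KRT8 had changes of -0.10, -0.08 and -0.21, of which the first turned to 0.05 under quantile normalization, while the last reached -0.65 and passed with the block (limma adjusted p 0.0275). KRT81 was at 0.792 and 0.926 times vehicle in the control line, 1.09 and 1.73 times in KO1, and 0.993 and 1.46 times in KO2. Its log2 changes of -0.22, 0.46 and 0.27 did not pass (limma adjusted p 0.433, 0.131 and 0.366 with the block). The replicates differed in size of response for KRT81, with R2 the higher ratio in each line.

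Counted over the 6 members without the block, 0 passed in any line, where 0.467% of tested genes (57) were called in the control line. The shares called were 0.238% (29) in KO1 and 0.32% (39) in KO2. In this fit 1 member, KRT80 in the control line, had an unadjusted limma p under 0.05. With the block 1 member passed in each line (KRT80, KRT7 and KRT7), where 32.4% (3952), 27.7% (3378) and 27% (3297) of tested genes were called. No member and no other gene passed for the difference in response, 0% of tested genes without or with the block. At an unadjusted limma p under 0.05 there were 115 genes without the block, none of them a member, and 1305 with it, KRT80 and KRT81 among them. With voom on recovered reads and the block 103 genes passed the adjusted threshold, KRT80 among them.

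**Figure D3:**
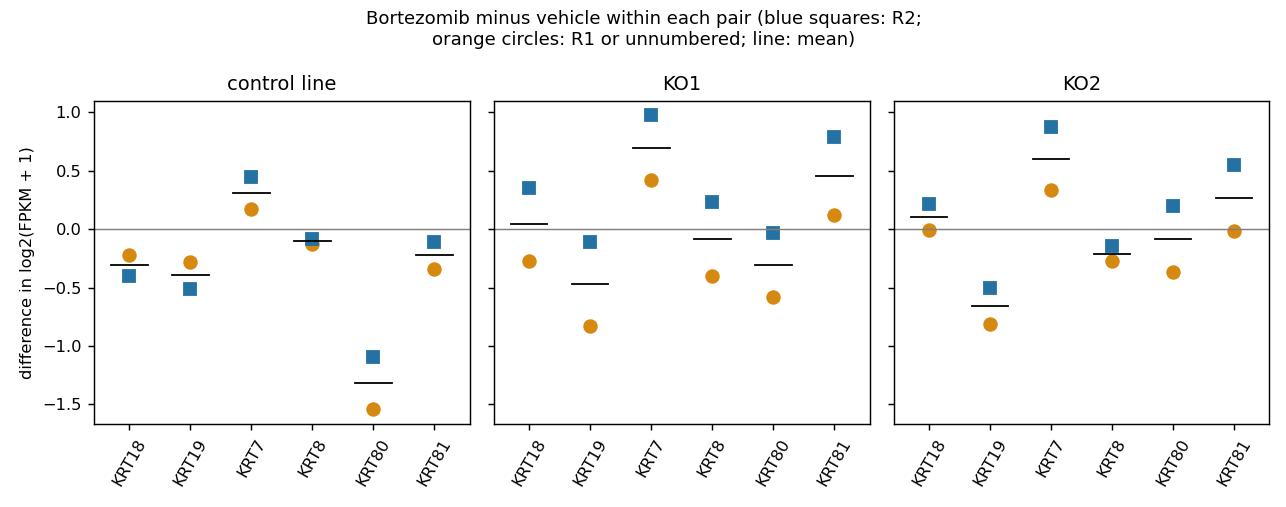
Difference in log2(FPKM + 1) between bortezomib and vehicle within each pair, by line; blue squares are R2, orange circles R1 or unnumbered, and lines are means. KRT80 lies at -1.54 and -1.09 in the control line and between -0.58 and 0.20 in the KO lines, KRT7 is above 0 and KRT19 below 0 in all 6 pairs.

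The balance of type I and type II keratin transcripts was described within each library, where library depth cancels. The ratio of KRT8 to KRT18 stayed between 0.815 and 1.57. Over both treatments, the ranges of the control line (0.905 to 1.57) and of the KO lines (0.815 to 1.24) overlapped. With bortezomib it was lower in KO1 and KO2 within pairs. The values were 1.13 and 0.995 against 1.57 (R1 or unnumbered), and 1.03 and 0.815 against 1.13 (R2). In vehicle the R1 or unnumbered pairs were lower (1.24 and 1.20 against 1.47) and the R2 pairs higher (1.12 and 1.05 against 0.905). KRT19 made up 6.78% to 8.23% of the summed type I FPKM in the control line. Its share was 26.3% and 30.2% in KO1 with vehicle, 20.46% and 22.7% in KO1 with bortezomib, 18.9% and 21.2% in KO2 with vehicle and 11.7% and 14.0% in KO2 with bortezomib. Without overlap, the share was higher in KO1 than in KO2 in each treatment and lower with bortezomib than with vehicle in each KO line. The ratio of the 4 type II members to the 2 type I members was 7.40 to 15.6 in the control line, 3.35 to 7.58 in KO1 and 2.62 to 4.94 in KO2, and the range of KO1 overlapped that of the control line. Within pairs of the same suffix level and treatment the ratio was lower in the KO line in all 8 comparisons, for example at 5.24 in KO1 and 4.55 in KO2 against 15.5 in the control line (R1 or unnumbered, vehicle). KRT81 took 57.2% to 68.4% of the summed FPKM of the 6 genes in the control line and 36.8% to 54.0% in the KO lines. These ratios contain the contrast by which KRT19 was chosen, and no test was made on them.

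**Figure D4:**
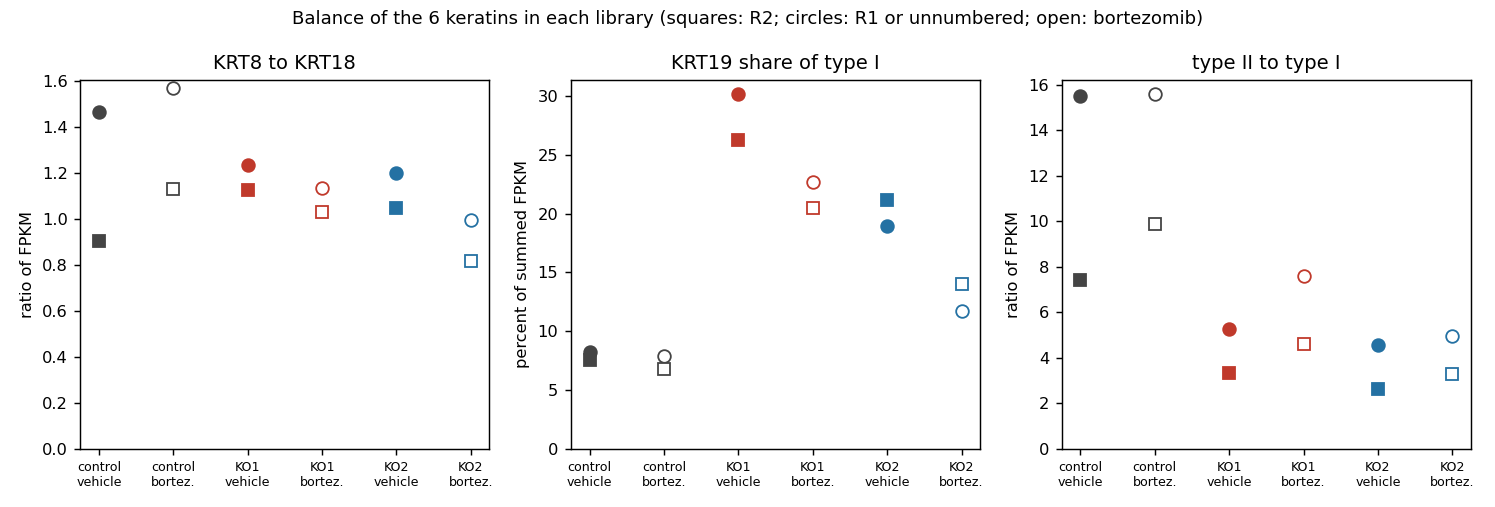
Ratio of KRT8 to KRT18, KRT19 as a percent of summed type I FPKM, and ratio of type II to type I FPKM in each library (axes start at 0); squares are R2, circles R1 or unnumbered, open symbols bortezomib. The KRT8 to KRT18 ratio overlaps between lines over both treatments together. The KRT19 share is at most 8.23% in the control line and at least 11.7% in the KO lines.

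Comparison of levels between genes depends on the length used. The deposited length was 3.24 times that of the longest GENCODE transcript with a CCDS tag for KRT8, 2.33 times for KRT7, 2.06 times for KRT18, 1.68 times for KRT19, 1.12 times for KRT80 and equal for KRT81. On the deposited FPKM scale KRT81 was the highest of the 6 in every group mean. With the transcript length, KRT8 in KO2 with vehicle was at 1849 ± 605 FPKM, KRT81 at 1375 ± 941 and KRT7 at 838 ± 451 (SD, n = 2). The libraries of KRT8 and KRT81 overlapped there, and those of KRT8 and KRT7 did not. The order by mean depended on the group. With the transcript length KRT81 was highest in the control line, at 1597 ± 1122 FPKM with vehicle and 1318 ± 812 with bortezomib. KRT7 was highest in KO1 with bortezomib, at 1439 ± 458 (SD, n = 2 each). Ratios of FPKM between groups for 1 gene do not depend on its length. Differences in log2(FPKM + 1) do, most for low values, because of the added 1.

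Across the 12 libraries, after each replicate level was centred on its mean, KRT8, KRT18, KRT19 and KRT80 correlated with each other, and KRT7 and KRT81 less so. Pearson's r of log2(FPKM + 1) was 0.97 for KRT8 with KRT18, 0.87 for KRT8 with KRT19, 0.86 for KRT18 with KRT19, and 0.76 to 0.80 for KRT80 with these 3. KRT7 and KRT81 had an r of 0.37 with each other and of -0.25 to 0.17 with the other 4. These are descriptions over libraries that share lines and treatments. Like the list of closest genes below, they contain the contrast by which KRT19 was chosen, so nothing further is read from them. The genes closest to KRT19 among the 12193 others, by the same measure, were PLEKHA5 (r = 0.981), HID1 (0.972), EMB (0.972), CLMN (0.971) and LPAR5 (0.971). EMB, which encodes the cell adhesion glycoprotein embigin, had group means of 0.227 FPKM in the control line with vehicle, 6.69 in KO1 and 7.48 in KO2.

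Of 48 other type I and type II keratins, 4 passed the low-value filter and 12 were at 0 in every library, and the 6 members made up 98.6% to 99.3% of all keratin FPKM. KRT16, a type I keratin of stressed and wounded epidermis, was at 0.119 and 0 FPKM in the control line with vehicle and at 1.78 and 2.21 with bortezomib. In KO1 it was at 0.640 and 0.0218 FPKM with vehicle and 2.29 and 3.75 with bortezomib, and in KO2 at 0.900 and 0.524, and 10.8 and 10.5. KRT16 was higher with bortezomib in KO2 both without the block (log2 change 2.78, limma adjusted p 0.00456) and with it (adjusted p 0.000233). In the control line (1.498) and in KO1 (1.61) it passed with the block (limma adjusted p 0.00311 and 0.00282) and not without it (0.0676 and 0.0703). KRT4, a type II keratin of stratified mucosa, was lower in KO1 than in KO2 with the block, in vehicle (log2 difference -1.65, limma adjusted p 0.00986) and with bortezomib (-1.24, adjusted p 0.0430). It was at 1.31 to 5.31 FPKM in KO2 and at 0.131 to 0.576 in the control line and KO1. KRT4 thus passed the low-value filter only through KO2, and nothing is read from its calls. KRT16 was also lower in KO1 than in KO2 with the block, with bortezomib (-1.56, limma adjusted p 0.0209) and not in vehicle (-0.39, adjusted p 0.585). Without the block neither KRT4 nor KRT16 passed between the KO lines (limma adjusted p 0.301 to 1). KRT16 was at most 0.900 FPKM in the vehicle libraries and thus passed the low-value filter only through those with bortezomib. Nothing is read from its calls either. KRT10, at 5.30 to 18.6 FPKM, and KRT86, at 1.80 to 4.48 FPKM, passed in no tested comparison.

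Proteins that bind or regulate keratins were listed as a group of 9, all of which passed the filter. With the block 3 of them were higher with bortezomib in the control line and 4 in each KO line, and 0 were lower, against 0 calls without it. With the block 32.4%, 27.7% and 27% of all tested genes were called in the 3 lines, so that the count of 3 of 9 in the control line is near the share of all genes. DNAJB6, a co-chaperone that binds KRT18, had log2 changes, given here and below in the order control line, KO1, KO2, of 1.61, 1.95 and 1.85 (limma adjusted p at most 0.000136 with the block). HSPB1, a small heat shock protein that associates with keratin filaments, had changes of 1.57, 2.73 and 2.49 (adjusted p at most 0.000672). CSNK1A1, a kinase that can disassemble keratin filaments, had changes of 0.99, 0.61 and 0.62 (limma adjusted p 0.00300 to 0.0280). HSPA8, a constitutive chaperone, passed in KO1 (0.85) and KO2 (0.83), with 0.50 in the control line (limma adjusted p 0.0130, 0.0154 and 0.0808 with the block). The list's median log2 change was 0.50, 0.58 and 0.35, against -0.01, 0.00 and -0.02 for all tested genes.

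Desmosomes and plakins anchor keratin filaments at the membrane, and 13 of 18 listed genes passed the filter. With the block 3 were lower and 1 higher with bortezomib in the control line, 6 lower and 0 higher in KO1, and 3 lower and 1 higher in KO2, and without it none passed. Beside the 32.4%, 27.7% and 27% of all tested genes called with the block, the 4 of 13 in the control line and in KO2 are near the share of all genes. JUP, which encodes plakoglobin, had log2 changes of -1.13, -0.70 and -0.70 (limma adjusted p 0.00374, 0.0332 and 0.0343 with the block), and PPL, periplakin, of -0.68, -0.87 and -0.69 (0.0343, 0.0154 and 0.0380). DSC3, a desmosomal cadherin, was the gene called higher in the control line (0.71) and in KO2 (0.76). Of these genes only DSG2, the desmoglein of simple epithelium, differed between the KO lines, higher in KO1 in vehicle (0.90, limma adjusted p 0.0183 with the block, 1 without). Of 7 other intermediate filament genes that passed the filter, LMNA, LMNB1 and SYNM were lower with bortezomib in all 3 lines with the block. LMNB1, which encodes lamin B1, had the largest changes of these, -2.25, -2.02 and -2.23 (limma adjusted p at most 0.000835 with the block and 0.169 to 0.311 without).

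Transcription factors of epithelial genes numbered 15 tested of 21 listed. With the block 0 were higher and 3 lower with bortezomib in the control line, 2 higher and 6 lower in KO1, and 2 higher and 7 lower in KO2, against 32.4%, 27.7% and 27% of all tested genes called in either direction. The 3 of 15 in the control line are below that share. ELF3, an epithelial ETS factor, had changes of -0.85, -1.14 and -0.97 (limma adjusted p 0.0146, 0.00487 and 0.0103 with the block), and FOXA2 of -1.24, -1.003 and -1.19 (adjusted p 0.00105 to 0.00347). SOX2 was lower with bortezomib in KO2 both without the block (-1.92, limma adjusted p 0.0206) and with it (0.000461). The 2 called higher in the KO lines were ETS1 (1.27 in KO1 and 0.85 in KO2) and JUN (1.48 and 1.05), with limma adjusted p of 0.00273 to 0.0159 with the block. Between the KO lines, EHF (-1.31) and SOX2 (-1.35) were lower in KO1 in vehicle with the block (limma adjusted p 0.0111 and 0.0137), and not without it (0.208 and 0.263). Both genes passed the low-value filter only through KO2 with vehicle (EHF 3.17 and 4.45 FPKM, SOX2 7.39 and 5.04). Nothing is therefore read from these calls or from that of SOX2 with bortezomib in KO2.

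Markers of epithelial and mesenchymal state were measured beside the keratins. EPCAM, an epithelial adhesion molecule, was at 1.25 and 2.19 FPKM in the control line with vehicle, 1.57 and 3.40 in KO1 and 3.45 and 6.93 in KO2. It was lower in KO1 than in KO2 in vehicle with the block (log2 difference -0.82, limma adjusted p 0.0277), and TJP1, the tight junction protein ZO-1, was lower in KO1 with bortezomib (-0.69, adjusted p 0.0410). These were the only calls between the KO lines among the 8 epithelial markers tested, beside 3% of tested genes in vehicle and 1.82% with bortezomib. With bortezomib and the block, 2 of the 8 were higher and 1 lower in the control line, 1 higher and 1 lower in KO1, and 2 higher and 1 lower in KO2, with list medians of -0.05, -0.05 and 0.04. Of all tested genes 32.4%, 27.7% and 27% were called in the 3 lines, so nothing is read from these counts. EPCAM was called higher in all 3 lines (1.23, 0.89 and 0.66) and TJP1 in the control line and KO2 (0.51 and 0.45). CLDN1, the tight junction protein claudin-1, was called lower in the control line (-1.06) and KO2 (-0.75), and CDH1, which encodes E-cadherin, in KO1 (-0.71).

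Of the 7 mesenchymal markers tested, 2 were higher and 1 lower in KO1 than in KO2 in vehicle with the block (list median -0.02), and 1 higher and 1 lower with bortezomib (0.16). Of all tested genes 3% and 1.82% were called in these comparisons. CDH2, the mesenchymal N-cadherin, was higher in KO1 (1.02 in vehicle and 1.05 with bortezomib, limma adjusted p 0.0226 and 0.0271), and TWIST1, a transcription factor of mesenchymal state, was higher in vehicle (1.19, adjusted p 0.0342). In vehicle CDH2 was at 11.9 and 17.1 FPKM in the control line, 42.3 and 46.0 in KO1 and 19.9 and 22.6 in KO2. TWIST1 passed the low-value filter only through KO1 (1.90 to 4.82 FPKM), so nothing is read from its call. FN1, fibronectin, was lower in KO1 (-1.52 and -1.75, limma adjusted p 0.00224 and 0.00154). With bortezomib CDH2 was called lower in all 3 lines (-0.84, -0.71 and -0.73) and ZEB1, a repressor of E-cadherin, higher in the control line and KO1 (0.85 and 0.52). Without the block no marker of either list was called in a tested comparison. The summed level of the 14 epithelial markers was 75.6 to 168 FPKM in the control line with vehicle, 97.9 to 161 in KO1 and 101.4 to 146 in KO2, and that of the 8 mesenchymal markers was 95.7 to 152, 112 to 172 and 145 to 152 FPKM. Both sums overlapped between the 3 lines, while the CDH2 libraries in vehicle did not. The share of tested genes like CDH2 in this is not given here. In vehicle 4 of the 7 mesenchymal markers tested were above the control line in each KO line (median log2 difference 0.00 in KO1 and 0.05 in KO2). Of the 8 epithelial markers tested, 6 in KO1 and 8 in KO2 were above the control line in vehicle (median 0.32 and 0.25). Of all tested genes 52.3% in KO1 and 59.9% in KO2 were. With bortezomib 5 of the 8 epithelial markers were above it in each KO line, beside 55.1% and 56.0% of all tested genes. The part of these markers in the keratin differences was not tested.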

How the data were processed

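RNA sequencing values were analysed for 12 A549 libraries in 6 groups of 2. The authors deposited FPKM for 58676 genes with a length per gene, 1 column per library, all mapped to a sample by title. Per the submitters' processing notes, CASAVA, STAR 2.5, HTSeq 0.6.1, DESeq2 and hg19 were used, with no roles given. The deposited coordinates are those of GRCh38 (95.2% of gene IDs have the same position in GENCODE 29), so the notes and the table differ in build. Strand setting and counting rules are not given in the sources used here. FPKM times length gave whole reads for 100% of values (tolerance 0.1), so the depth is 13211608 to 23819258 assigned reads per library, and counting error is small beside the spread of replicates.

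Genes with a mean of at least 1 FPKM (12194, 20.8%) were tested with limma 3.58.1 in R 4.3.3 on log2(FPKM + 1), a pseudocount of 1 that understates changes of low genes. The model had 1 mean per group over all 12 libraries and a mean-variance trend. A second fit added the title suffix (R1, R2, none) as a replicate block. The suffix pairs the libraries: the difference of R2 from its partner correlated between groups across genes at 0.70 to 0.89 over all 15 pairs of groups (median 0.81), and at 0.80 to 0.89 over 6 pairs of KO groups. In that block, only R2 occurs in KO and control groups alike. The other alternatives were a block that groups unnumbered libraries with R1, another pseudocount and filters, quantile normalization, FPKM rescaled without mitochondrial genes, voom on recovered reads without and with the block, only the compared groups in the fit, reads of copies added to their parent, and leaving out each library. Quantile normalization with the block, mitochondrial genes left out with the block, and the transcript length were added after seeing the data. The fits were tested on simulated data.

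The members and gene lists were chosen with earlier results of these data known. Genes named are the 6 members, listed genes called in a tested comparison or highest in their list, copies of the members with a mean of at least 1 FPKM, and the 5 genes most like KRT19. KRT83, LINC00592, SFTPA1 and SFTPA2 fall outside that rule, and they, EMB's values by group and the choice among called genes were taken after the values were seen. Python 3.11.15, pandas 2.3.3, numpy 2.4.6 and Biopython 1.88 were used for the remaining steps.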

Additional observations from a re-analysis of the deposited data

Results flagged for a closer look

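In 1 of the fits the bortezomib response of KRT80 depended on genotype. With voom on recovered reads and the replicate block, the response of the mean KO line minus that of the control line was 1.21 on the log2 scale (limma adjusted p 0.0163), while all other fits gave 0.64 to 1.60 with adjusted p of 0.144 to 1. KRT80 was lower with bortezomib in both pairs of the control line, both pairs of KO1 and 1 pair of KO2.

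KRT81 moved in opposite directions in the control line and in KO1. With bortezomib both control pairs were lower (0.792 and 0.926 times vehicle) and both KO1 pairs higher (1.09 and 1.73 times), a difference of 0.68 on the log2 scale. That difference for KO1 alone was not tested. The tested difference for the mean of the KO lines was 0.59 (limma adjusted p 1 without and 0.454 with the block). KRT81 was also the member with the widest spread between replicates, and its R2 libraries were low in every group.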

How the results depend on the processing

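The replicate block changed more calls than the other settings. Without it no member was called in a tested comparison in any fit, with any library left out included. With the block by suffix, 1 member was called with bortezomib in each line (KRT80, KRT7 and KRT7), 2 between KO1 and KO2 in vehicle (KRT18 and KRT8) and 1 with bortezomib (KRT18). When unnumbered libraries were grouped with R1 there were 1, 1 and 0 with bortezomib and 1 and 1 between the KO lines. With voom and the block they were 1 (KRT80), 1 (KRT7), 2 (KRT7 and KRT19), 2 and 2 (KRT18 and KRT8), with 1 (KRT80) for the interaction. With quantile normalization and the block they were 1 (KRT80), 0, 1 (KRT8), 1 (KRT18) and 0, and without mitochondrial genes with the block 1 (KRT80), 1 (KRT7), 1 (KRT19), 1 and 1 (KRT18). The causes of these differences were not tested.

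Signs turned under quantile normalization, without and with the block alike, for the bortezomib response of KRT8 in the control line (0.0504) and of KRT18 in KO1 (-0.0848) and KO2 (-0.20), and without mitochondrial genes for KRT19 between KO1 and KO2 with bortezomib (0.0156). Leaving out 1 library also turned signs of small uncalled values. The ranges for bortezomib in the control line were -0.37 to 0.99 for KRT7, -0.65 to 0.44 for KRT8 and -1.01 to 0.56 for KRT81. In KO1 they were -0.52 to 0.35 for KRT8, -0.32 to 0.41 for KRT18, -0.97 to 0.0349 for KRT19, -0.79 to 0.18 for KRT80 and -0.44 to 1.36 for KRT81. In KO2 they were -0.55 to 0.13 for KRT8, -0.13 to 0.35 for KRT18, -0.65 to 0.48 for KRT80 and -0.49 to 1.03 for KRT81. For the interaction they were -0.34 to 1.02 for KRT7, -0.59 to 0.50 for KRT8, -0.54 to 0.20 for KRT19 and -0.20 to 1.37 for KRT81. Between the KO lines in vehicle they were -0.45 to 0.76 for KRT7, -0.71 to 0.30 for KRT19, -0.78 to 0.35 for KRT80 and -1.38 to 0.42 for KRT81, and with bortezomib -0.0814 to 0.58 for KRT7, -0.16 to 0.13 for KRT19 and -0.86 to 0.27 for KRT81.

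The higher level of KRT19 in the KO lines kept its direction under every alternative, at 2.31 to 3.31 on the log2 scale over both lines and treatments, and KRT18 (0.32 to 2.25) and KRT8 (0.18 to 2.22) did so too. KRT80 in vehicle turned to -0.20 in KO1 and -0.06 in KO2 with 1 library left out. Over the 60 differences of single members, 1404 values under the alternatives were counted as unchanged, 27 as newly passing the threshold, 55 as turned in sign and 8 as moved otherwise. In tested comparisons unchanged means the same direction and side of the threshold. For KO lines against the control line, which were not tested, it means a shift smaller than the pooled SD within groups. Some of the 1404 therefore turned sign, such as KRT80 in KO1 with vehicle. With 2 libraries a group, the spread of replicates and not the depth limits these values.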
